A study of Mus musculus with 16 samples.

Results

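The IgG Fc receptors are the 5 genes Fcgr1, Fcgr3, Fcgr4, Fcgr2b and Fcgrt, taken by gene name from the 21497 genes of the SREBP2 count table and the 22001 genes of the IRF7 count table. All 5 were found in both tables and all 5 were among the 10764 and 10788 genes that the authors kept, so every member was tested. The 16 RNA-seq libraries form 8 groups of 2 and come from bone marrow-derived macrophages (BMMs) grown from female mice. In the SREBP2 experiment, BMMs from SREBP2floxflox LysM cre mice (SREBP2-deficient, deletion in myeloid cells, where the lysozyme promoter drives Cre) were set against BMMs from LysM cre mice without floxed alleles (LysM-Cre control), so both arms carried Cre. In the IRF7 experiment, BMMs from IRF7 deficient mice (germline IRF7 KO) were set against C57BL6 mice (WT). All cells received M-CSF from L929 conditioned medium at 23.3 ng/mL, and the RANKL groups also received RANKL for 3 days, at 40 ng/mL in the labels, a different dose from that in the study's methods. M-CSF alone keeps BMMs as macrophages, and RANKL turns them into multinucleated osteoclasts. Mouse ages are not given in the labels. The study calls the libraries of a group biological replicates. Whether they stem from different animals or dishes is not given in the sources used here, and the spread behind each p-value may be technical.

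IgG Fc receptors bind the constant part of IgG and let a macrophage take up and answer to antibody-coated particles. FcγRI (Fcgr1), which binds monomeric IgG with high affinity, FcγRIII (Fcgr3) and FcγRIV (Fcgr4) are activating: they have no signalling motif of their own and work through the FcRγ chain (Fcer1g), whose tyrosine motif (ITAM) recruits the kinase Syk. FcγRIIb (Fcgr2b) is the inhibitory receptor, and its own tail holds a tyrosine motif (ITIM) that recruits the phosphatase SHIP-1 (Inpp5d). The neonatal receptor FcRn (Fcgrt) pairs with β2-microglobulin (B2m), binds IgG in acidic endosomes and returns it to the cell surface. FcRγ is also one of the adaptors of osteoclast co-stimulation, where ITAM signals act beside RANKL.

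In the mm10 genome of the files, 3 members lie next to each other on chromosome 1. Fcgr2b spans chr1:170958617-170976547 on the minus strand, Fcgr4 chr1:171018920-171029761 on the plus strand and Fcgr3 chr1:171051174-171064935 on the minus strand, with 42373 and 21413 bases between them. Fcgr1 is at chr3:96282909-96293969 and Fcgrt at chr7:45092990-45103851, both on the minus strand. In GENCODE M21 the antisense genes Gm38204 and Gm45669 lie over Fcgr2b and Fcgrt, and whether the counting used strand is not given in the sources used here. Each of the 2 antisense genes had 1 count in 1 library of the table that lists it and 0 in the other 7.

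The codons of the ITIM of Fcgr2b, known as the motif behind its inhibitory signal, are shown with 12 bases on either side (Fcgr2b coding exon, chr1:170961059-170961100, minus strand, mm10, ITIM hexamer in capitals).
Fcgr2b ITIM codons: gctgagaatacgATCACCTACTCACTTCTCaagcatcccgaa
The hexamer begins at residue 317 of the 340 of the longest annotated Fcgr2b protein. The same loose hexamer pattern was matched 3 times in Fcgr1 and 1 time each in Fcgr4 and Fcgrt, and 0 times in Fcgr3. The Fcgr4 match begins 31 residues from the end of its protein and that of Fcgr2b 24 residues from the end, counting the first residue of the match, and a match is only a match of letters. No member held a match to the ITAM pattern.

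Fcgr3 and Fcgr2b are near copies outside their tails, which matters for counting. Their coding sequences were 87.5% identical over 782 aligned bases and their proteins 72.1% identical over 262 residues. All other pairs of members were at most 69.8% identical in coding bases. The longest coding stretch the pair shares without a difference is shown because reads inside it fit both genes (129 bases, chromosome 1, minus strand, mm10, exons spliced, from 171057792 down to 171054167 in Fcgr3 and from 170968081 down to 170966674 in Fcgr2b).
Fcgr3 and Fcgr2b shared stretch: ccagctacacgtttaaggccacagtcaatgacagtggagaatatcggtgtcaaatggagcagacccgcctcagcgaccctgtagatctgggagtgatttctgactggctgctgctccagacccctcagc
Of all runs of 50 bases in annotated transcripts, 9.58% of those of Fcgr3 were also in Fcgr2b, and 6.95% of those of Fcgr2b were also in other genes. For Fcgr1, Fcgr4 and Fcgrt the count was 0. How the authors' counting treated reads that fit both genes is not given in the sources used here. Part of the Fcgr3 and Fcgr2b counts is therefore uncertain. Fcgr3 had 1.54 to 31.8 times the counts of Fcgr2b over the 16 libraries. The uncertain part can thus be a larger share for Fcgr2b, and every ratio to Fcgr2b carries it.

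Promoter windows ran from 250 bases before to 50 after the RefSeq start (GRCm38.p6). They were searched on both strands for 4 motifs of factors that the study and the family are known for. These were the interferon-gamma-activated site TTCNNNGAA, the interferon-stimulated element GAAANNGAA, the PU.1 site GAGGAAGT and the sterol element TCACCCCA of SREBP proteins. All 5 members were matched in the promoter table, Fcgr3 with 2 windows. The windows of Fcgr2b and Fcgr3 lie within the gene spans given above, and positions are counted from the RefSeq start. The 3 promoters with a match are shown, with matches in capitals.
Fcgr1 promoter, chr3:96293920-96294219, minus strand: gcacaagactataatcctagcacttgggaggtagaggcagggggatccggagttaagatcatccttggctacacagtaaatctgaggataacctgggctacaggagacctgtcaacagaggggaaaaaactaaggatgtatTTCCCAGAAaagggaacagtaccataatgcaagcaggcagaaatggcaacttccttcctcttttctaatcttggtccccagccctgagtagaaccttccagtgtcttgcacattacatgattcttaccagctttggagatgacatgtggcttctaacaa
Fcgr4 promoter, chr1:171018676-171018975, plus strand: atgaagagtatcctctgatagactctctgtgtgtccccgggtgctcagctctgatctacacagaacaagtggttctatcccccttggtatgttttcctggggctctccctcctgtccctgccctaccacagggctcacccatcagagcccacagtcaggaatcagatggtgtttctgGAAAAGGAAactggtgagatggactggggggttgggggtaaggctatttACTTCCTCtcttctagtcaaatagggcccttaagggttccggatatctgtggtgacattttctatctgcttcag
Fcgr2b promoter, chr1:170976022-170976321, minus strand: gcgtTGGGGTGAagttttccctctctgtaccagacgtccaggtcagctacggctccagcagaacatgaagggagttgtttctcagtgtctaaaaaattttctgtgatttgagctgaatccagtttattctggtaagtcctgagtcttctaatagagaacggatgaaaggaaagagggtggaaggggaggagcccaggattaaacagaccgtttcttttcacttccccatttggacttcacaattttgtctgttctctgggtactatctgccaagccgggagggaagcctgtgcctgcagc
Fcgr1 held the interferon-gamma-activated letters 109 bases before its start. Fcgr4 held the interferon-stimulated letters 73 bases and the PU.1 letters 24 bases before its start, and Fcgr2b held the sterol element letters 246 bases before its start. Over all 32851 promoters of the table, the shares with these letters were 8.3%, 8.56%, 3.2% and 1.56%, in the order in which the motifs are listed above.

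Library totals ran from 7703178 to 13387849 counts, so that a single count is worth 0.0708 to 0.139 CPM (counts scaled to the library total) after TMM scaling. Srebf2 was at most 0.963 CPM in the 4 SREBP2-deficient libraries and at least 232.8 CPM in their controls, and Irf7 was at most 2.11 CPM in the 4 IRF7-deficient libraries and at least 43.3 CPM in WT, so every library matched its genotype label. All 10 osteoclast markers of the list (such as Ctsk and Acp5) rose with RANKL in each of the 4 genotypes, and their summed level was 81.3 to 148.7 CPM in macrophage libraries and 32005 to 77025 CPM in RANKL libraries. Neutrophil markers also moved with treatment. Their summed level was 64.8 to 1142 CPM with M-CSF and 4.41 to 18.9 CPM with RANKL. Neutrophils carry IgG Fc receptors too, and the part of these cells in the receptor values was not tested. The NK cell markers (3 listed, with Ncr1 and Eomes at 0) summed to at most 0.139 CPM in any library. The 5 B cell markers summed to 4.09 to 30.1 CPM with M-CSF and 0.346 to 0.937 CPM with RANKL, and those tested (1 in the SREBP2 table, 3 in the IRF7 table) all fell in each genotype. B cells carry Fcgr2b and Fcmr, and their part in the values of these genes was not tested. In bulk RNA, fewer cells of a kind and less RNA per cell cannot be told apart.

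**Figure D1:**
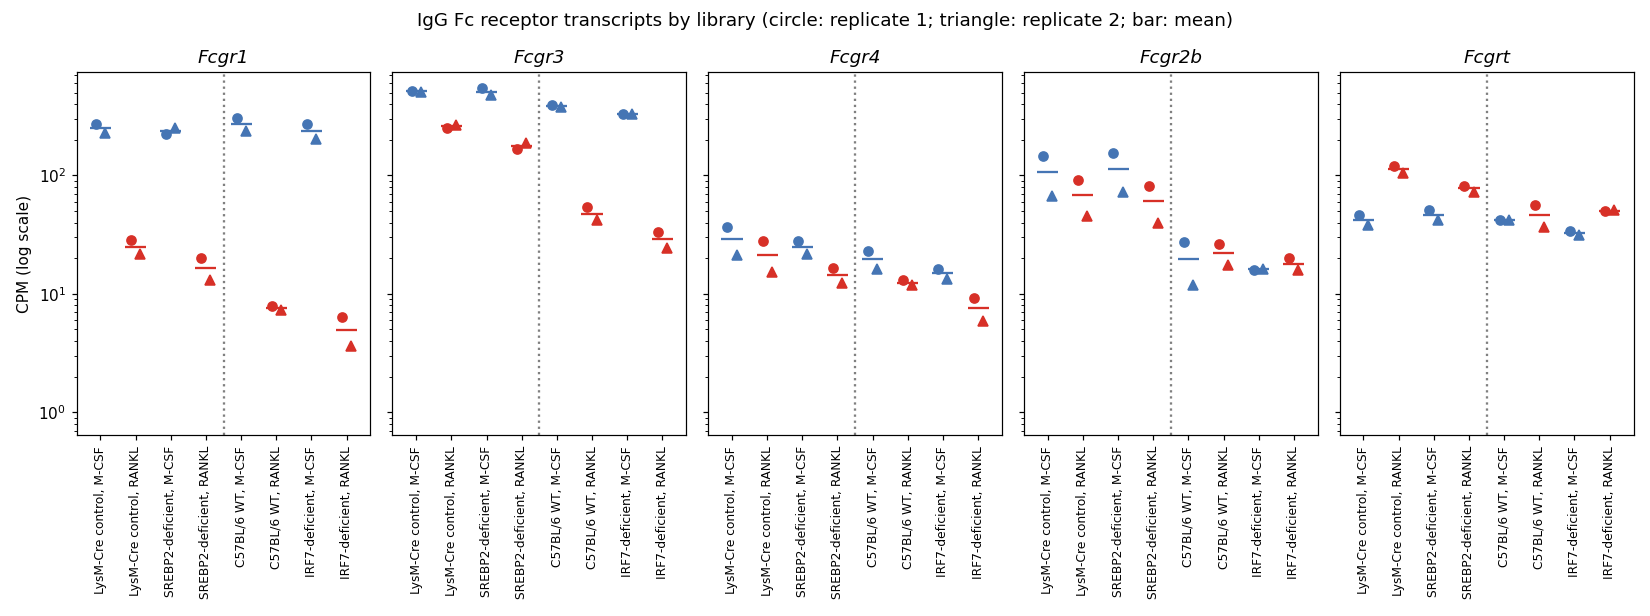
CPM after TMM scaling (log axis) of the 5 receptors in each of the 16 libraries, with blue for M-CSF and red for RANKL, circles and triangles for replicates 1 and 2, bars for the mean, and a dotted line between the SREBP2 and IRF7 experiments. Fcgr1 lies between 204.6 and 307.8 CPM in all 8 macrophage libraries and between 3.62 and 28.5 CPM in all 8 RANKL libraries.

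Fcgr1 showed the largest fall with RANKL among the members in all 4 genotypes. In LysM-Cre control cells it stood at 274.7 and 230.4 CPM in M-CSF and at 28.5 and 21.7 CPM with RANKL. In SREBP2-deficient cells it stood at 225.7 and 251.9 CPM in M-CSF and at 19.9 and 12.99 CPM with RANKL. Every RANKL library lay below every macrophage library of its experiment. In WT cells the values were 307.8 and 238.3 CPM against 7.92 and 7.35 CPM. In IRF7-deficient cells they were 272.3 and 204.6 CPM against 6.34 and 3.62 CPM. The fall was therefore 10.1-fold and 14.5-fold in the SREBP2 experiment and 35.9-fold and 48.0-fold in the IRF7 experiment, in each case with the control genotype given before the deficient one.

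On the log2 scale Fcgr1 changed by -3.33 ± 0.21 (SE) in LysM-Cre control cells and by -3.86 ± 0.23 in SREBP2-deficient cells (edgeR's quasi-likelihood test, adjusted p = 5.8e-06 and 3.5e-06). The change was -5.16 ± 0.28 in WT cells and -5.59 ± 0.29 in IRF7-deficient cells (edgeR, adjusted p = 1.1e-05 and 8.2e-06). Only 0.966%, 0.557%, 0.38% and 0.269% of all tested genes had a lower log2 fold change than Fcgr1 in these 4 comparisons. The call held under every alternative tried and with each library left out in turn.

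Across the members, 3 of 5 passed the test in LysM-Cre control cells, where 57.7% of all genes passed, and 3 of 5 in SREBP2-deficient cells, where 56.2% passed. In WT cells 2 of 5 passed against 47.4% of all genes, and in IRF7-deficient cells 4 of 5 passed against 49.3%. The count of 4 in IRF7-deficient cells ran from 2 to 4 when each library was left out in turn. The median over the members was -0.65, -0.92, -0.65 and -0.97 (log2) in LysM-Cre control, SREBP2-deficient, WT and IRF7-deficient cells, where the median over all genes was 0.00, 0.01, 0.01 and 0.00.

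Fcgr3, the activating receptor that binds IgG complexes with low affinity, fell with RANKL in all 4 genotypes too. In LysM-Cre control cells it had 521.6 and 504.5 CPM in M-CSF and 251.3 and 269.5 CPM with RANKL. In SREBP2-deficient cells it had 544.5 and 479.7 CPM in M-CSF and 168.3 and 189.1 CPM with RANKL. The groups did not overlap, and the fall was 1.97-fold (log2 change -0.98 ± 0.12, edgeR adjusted p = 1.4e-04) and 2.86-fold (-1.52 ± 0.12, edgeR adjusted p = 1.5e-05).

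In the IRF7 experiment the fall of Fcgr3 was steeper. WT cells had 397.9 and 379.0 CPM in M-CSF and 53.7 and 41.7 CPM with RANKL, and IRF7-deficient cells had 330.7 and 332.0 CPM against 33.3 and 24.3 CPM. These are falls of 8.17-fold (-3.03 ± 0.19, edgeR adjusted p = 1.9e-05) and 11.5-fold (-3.52 ± 0.19, edgeR adjusted p = 1.0e-05). The experiments were fitted separately, and the difference between them was not tested. Macrophage markers of the fixed list also differed in size between the experiments, with a median log2 change of -0.55 and -0.98 in the SREBP2 experiment and -2.14 and -2.69 in the IRF7 experiment, and 5, 5, 7 and 7 of the 8 fell. Their summed level was 5750 to 6176 CPM with M-CSF and 5610 to 6346 CPM with RANKL in the SREBP2 experiment, and 25911 to 35675 CPM with M-CSF and 6240 to 8023 CPM with RANKL in the IRF7 experiment. The list includes Lyz2, the lysozyme M gene, and both arms of the SREBP2 experiment carried Cre driven by the lysozyme M promoter. The part of Lyz2 in these sums was not tested, so their gap between the experiments is no measure of macrophage content. The part of the macrophage markers in the receptor changes was not tested.

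Fcgr4, the mouse counterpart of human FcγRIIIa, had low counts, and its estimate was below 0 in all 4 genotypes. It had 36.7 and 21.2 CPM in M-CSF and 27.7 and 15.2 CPM with RANKL in LysM-Cre control cells, where the groups overlapped (-0.43 ± 0.35, edgeR adjusted p = 0.322). It had 28.2 and 21.7 CPM against 16.6 and 12.3 CPM in SREBP2-deficient cells (-0.79 ± 0.37, edgeR adjusted p = 0.109). Neither difference passed the test, although the SREBP2-deficient groups did not overlap, and the SREBP2-deficient one passed without the filter on low counts (adjusted p = 4.0e-04) and in DESeq2 (adjusted p = 0.0474).

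In WT cells Fcgr4 had 22.99 and 16.1 CPM in M-CSF and 13.04 and 11.9 CPM with RANKL (-0.65 ± 0.25, edgeR adjusted p = 0.0673). In IRF7-deficient cells it had 16.3 and 13.4 CPM against 9.27 and 5.95 CPM, and this fall of 1.96-fold passed (-0.97 ± 0.27, edgeR adjusted p = 0.0175). The call was lost without IRF7-deficient macrophage replicate 1 (adjusted p = 0.103) and without IRF7-deficient RANKL replicate 2 (adjusted p = 0.0766). Over the settings tried, the adjusted p ran from 1.4e-04 to 0.103. The WT value passed without either IRF7-deficient RANKL library or without WT macrophage replicate 2 (adjusted p = 0.0338 to 0.0472), and without the filter on low counts (adjusted p = 0.0077).

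The inhibitory receptor Fcgr2b passed the test in none of the 4 RANKL comparisons, and its libraries overlapped between treatments in all 4 genotypes. In LysM-Cre control cells it had 147.3 and 66.9 CPM in M-CSF and 91.9 and 45.1 CPM with RANKL (-0.65 ± 0.62, edgeR adjusted p = 0.413). In SREBP2-deficient cells it had 155.6 and 72.6 CPM against 80.7 and 39.9 CPM (-0.92 ± 0.63, edgeR adjusted p = 0.263). In each of these 4 groups replicate 1 was 2.02 to 2.20 times replicate 2, which no other member showed. The ratio was 1.30 to 1.82 for Fcgr4, 0.896 to 1.53 for Fcgr1, 0.890 to 1.14 for Fcgr3 and 1.12 to 1.21 for Fcgrt. Without LysM-Cre control macrophage replicate 1 the Fcgr2b change in LysM-Cre control cells was 0.03 (log2). Without the filter on low counts, edgeR called Fcgr2b lower in both genotypes (adjusted p = 1.5e-04 and 7.5e-08) at nearly the same estimates (-0.66 and -0.93). With the replicate number as a block, edgeR also called it lower in both (-0.63 and -0.91, adjusted p = 0.0011 and 1.7e-04). The labels do not say that a replicate number pairs samples.

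In the IRF7 experiment Fcgr2b was low. WT cells had 27.3 and 11.9 CPM in M-CSF and 26.6 and 17.4 CPM with RANKL (0.15 ± 0.37, edgeR adjusted p = 0.760). IRF7-deficient cells had 16.04 and 16.4 CPM against 20.1 and 15.8 CPM (0.15 ± 0.38, edgeR adjusted p = 0.774). The estimate turned negative without WT macrophage replicate 2 or WT RANKL replicate 1 in WT cells (-0.32 and -0.18), and without IRF7-deficient RANKL replicate 1 in IRF7-deficient cells (-0.04). The 8 Fcgr2b values of the IRF7 experiment, at most 27.3 CPM, lay below the 8 of the SREBP2 experiment, at least 39.9 CPM, but the tables were scaled separately and were not tested against each other. Within a library, where scaling plays no part, the count of Fcgr4 was 0.181 to 0.338 of that of Fcgr2b in the SREBP2 experiment and 0.377 to 1.35 of it in the IRF7 experiment. These counts are not corrected for length.

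Fcgrt, the α chain of FcRn, was the member that rose. In LysM-Cre control cells it went from 46.0 and 38.5 CPM to 121 and 105.4 CPM, a rise of 2.67-fold (1.42 ± 0.15, edgeR adjusted p = 7.2e-05). In SREBP2-deficient cells it went from 51.1 and 42.3 CPM to 82.3 and 73.2 CPM, a rise of 1.67-fold (0.74 ± 0.15, edgeR adjusted p = 0.0031). The 2 treatments did not overlap in either genotype. In WT cells it had 41.8 CPM in both macrophage libraries and 56.9 and 36.4 CPM with RANKL (0.15 ± 0.19, edgeR adjusted p = 0.550), and this difference passed without WT RANKL replicate 2 (0.44, adjusted p = 0.0336) and changed sign without WT RANKL replicate 1 (-0.20, adjusted p = 0.309). In IRF7-deficient cells it went from 34.1 and 31.6 CPM to 50.05 and 50.8 CPM (0.62 ± 0.19, edgeR adjusted p = 0.0302). That call was lost without either IRF7-deficient macrophage library, either IRF7-deficient RANKL library or WT macrophage replicate 2 (adjusted p = 0.0517 to 0.139). Over the settings tried, the adjusted p ran from 0.0020 to 0.139.

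**Figure D2:**
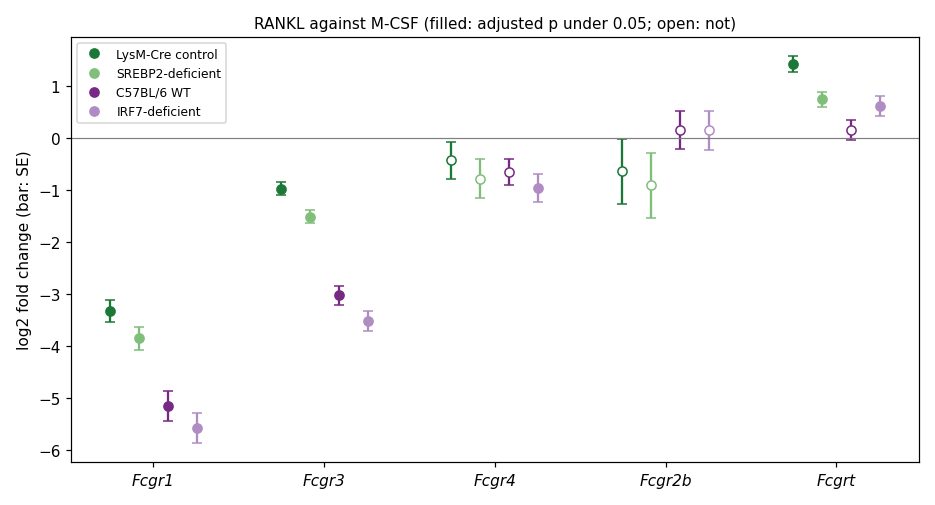
log2 fold change of RANKL against M-CSF for each receptor in the 4 genotypes, with bars for 1 SE and filled points where the edgeR adjusted p was under 0.05. Fcgr1 lies at -3.33, -3.86, -5.16 and -5.59, while Fcgr2b lies between -0.92 and 0.15 with open points only.

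Activating and inhibitory receptors were compared within each library as the ratio of their read counts, which needs no scaling between libraries or tables. The ratios are not corrected for length, and the exons of Fcgr1 cover 2589 bases against 5790 for Fcgr2b. The ratio of Fcgr1 to Fcgr2b was 1.86 and 3.44 in LysM-Cre control macrophages and 0.311 and 0.480 after RANKL. It was 1.45 and 3.47 in SREBP2-deficient macrophages and 0.247 and 0.326 after RANKL. In the IRF7 experiment it was 11.3 and 20.0 in WT macrophages against 0.298 and 0.423, and 16.98 and 12.5 in IRF7-deficient macrophages against 0.315 and 0.230. Counts of Fcgr1 thus exceeded those of Fcgr2b in all 8 macrophage libraries and were lower in all 8 RANKL libraries. Per kilobase of exon, LysM-Cre control RANKL replicate 2 had more Fcgr1 than Fcgr2b (8.36 against 7.79), and every other RANKL library had less. The mean change of the ratio within genotype was -4.22 (log2) over the 4 genotypes, from -2.71 to -5.76. The exact two-sided permutation test within genotypes gave p = 0.00154, the smallest that the 1296 arrangements can give. After Benjamini-Hochberg adjustment over the 9 ratio tests it was 0.0139.

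The ratio of Fcgr3 to Fcgr2b fell on average as well, with less certainty. It was 3.54 and 7.54 against 2.74 and 5.97 in LysM-Cre control cells, and 3.499 and 6.60 against 2.08 and 4.74 in SREBP2-deficient cells, where the treatments overlapped. It was 14.6 and 31.8 against 2.02 and 2.40 in WT cells, and 20.6 and 20.3 against 1.66 and 1.54 in IRF7-deficient cells, where they did not overlap. The change was -0.35, -0.61, -3.29 and -3.68 (log2) in these 4 genotypes, so the mean of -1.98 came mostly from the IRF7 experiment (exact permutation p = 0.0123, adjusted over the 9 tests 0.0556). The adjusted p ran from 0.0278 to 0.0903 when each library was left out in turn, and passed without LysM-Cre control macrophage replicate 1, LysM-Cre control RANKL replicate 2, SREBP2-deficient macrophage replicate 1 or SREBP2-deficient RANKL replicate 2.

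The ratio of Fcgr4 to Fcgr2b had no common direction. It changed by 0.18 and 0.11 (log2) in LysM-Cre control and SREBP2-deficient cells and by -0.88 and -1.13 in WT and IRF7-deficient cells (mean -0.43, exact permutation p = 0.0972, adjusted 0.292). Summed over the 3 activating receptors, counts were 5.65 and 11.3 times those of Fcgr2b in LysM-Cre control macrophages and 3.35 and 6.79 times with RANKL. In SREBP2-deficient cells they were 5.13 and 10.4 times in M-CSF and 2.54 and 5.38 times with RANKL. In WT cells they were 26.7 and 53.1 times against 2.81 and 3.51 times, and in IRF7-deficient cells 38.6 and 33.6 times against 2.43 and 2.15 times. This sum was not tested. The RANKL libraries of all 4 genotypes lay between 2.15 and 6.79, while macrophage libraries lay between 5.13 and 11.3 in the SREBP2 experiment and between 26.7 and 53.1 in the IRF7 experiment.

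**Figure D3:**
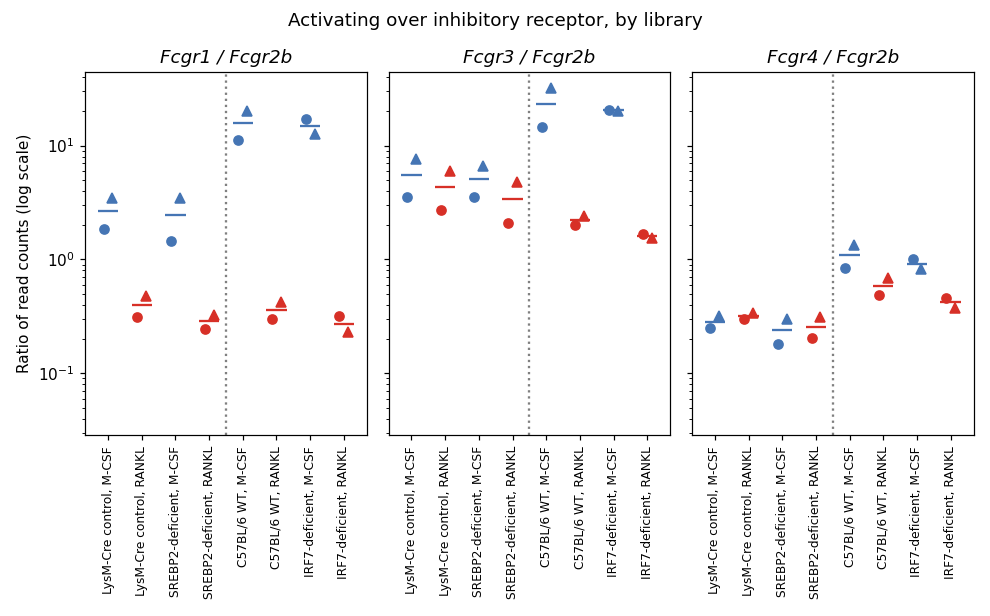
Read count of each activating receptor over that of Fcgr2b (log axis) in each library, with blue for M-CSF, red for RANKL, circles and triangles for replicates 1 and 2 and bars for the mean. The Fcgr1 ratio lies between 1.45 and 20.0 in macrophage libraries and between 0.230 and 0.480 in RANKL libraries.

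Levels of different receptors were set side by side as CPM per kilobase of exon (union of all annotated exons). In macrophages of all 4 genotypes Fcgr3 was highest, at 295.6 ± 6.96 (SD, n = 2) in LysM-Cre control, 295.0 ± 26.4 in SREBP2-deficient, 223.8 ± 7.70 in WT and 190.9 ± 0.507 in IRF7-deficient cells, and Fcgr1 was next, at 92.1 to 105.5. The other 3 members were between 2.80 and 23.05, with Fcgr2b lowest in each group. In the SREBP2 experiment the libraries of Fcgr4, Fcgrt and Fcgr2b overlapped in this order, and with the longest coding transcript (3544 in place of 5790 bases for Fcgr2b) Fcgr2b came before Fcgrt and Fcgr4 there.

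With RANKL the order changed. Fcgr3 remained highest in LysM-Cre control (150.0 ± 7.41) and SREBP2-deficient (103.0 ± 8.49) osteoclasts, with Fcgrt next at 53.8 ± 5.15 and 37.0 ± 3.05 CPM per kilobase. In WT osteoclasts Fcgr3 (27.5 ± 4.87) and Fcgrt (22.2 ± 6.88) overlapped, and in IRF7-deficient osteoclasts Fcgrt (24.0 ± 0.245) lay above Fcgr3 (16.6 ± 3.68). Fcgr1 came last in all 4, at 9.69, 6.35, 2.95 and 1.92 CPM per kilobase. Its libraries overlapped those of Fcgr2b in LysM-Cre control, SREBP2-deficient and WT osteoclasts.

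Between genotypes no member passed the test. In macrophages, SREBP2-deficient and LysM-Cre control cells differed by -0.08 ± 0.19 for Fcgr1, -0.00 ± 0.12 for Fcgr3, -0.22 ± 0.35 for Fcgr4, 0.09 ± 0.62 for Fcgr2b and 0.14 ± 0.15 for Fcgrt (log2). Here 0 of 5 members and 0.0557% of all genes were called by edgeR, with 0 members at an unadjusted p under 0.05 and 0 called by DESeq2. All 5 members overlapped between the genotypes.

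In osteoclasts all 5 members had a lower estimate in SREBP2-deficient than in LysM-Cre control cells. The differences were -0.61 ± 0.22 for Fcgr1, -0.54 ± 0.12 for Fcgr3, -0.57 ± 0.37 for Fcgr4, -0.18 ± 0.63 for Fcgr2b and -0.54 ± 0.15 for Fcgrt. edgeR called 0 of 5 members (0.0372% of all genes), 3 were under an unadjusted p of 0.05, and the smallest adjusted p was 0.474, for Fcgr3. DESeq2 called 1, Fcgr3 (adjusted p = 0.0479), and so did edgeR without the filter on low counts (adjusted p = 0.0286). For Fcgr1, Fcgr3 and Fcgrt both deficient libraries lay below both controls. The share of all genes with such a separation was not computed. Of all genes tested, 2.51% had a lower log2 fold change than Fcgr1, 3.25% than Fcgr3 and 3.3% than Fcgrt, and the median over all genes was 0.01. The same comparison gave a median of -0.29 over the 8 macrophage markers, with 7 below 0 and 0 called, and a median of 0.00 over the 10 osteoclast markers. Their part was not tested. The interaction of SREBP2 genotype with RANKL called 0 members and 0% of all genes by edgeR, with 2 members under an unadjusted p of 0.05 and 0 called by DESeq2. These were Fcgrt (-0.68 ± 0.21, unadjusted p = 0.0108 in edgeR) and Fcgr3 (-0.54 ± 0.17, unadjusted p = 0.0101 in edgeR).

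In the IRF7 experiment the macrophages differed by -0.19 ± 0.22 for Fcgr1, -0.23 ± 0.17 for Fcgr3, -0.39 ± 0.25 for Fcgr4, -0.28 ± 0.37 for Fcgr2b and -0.35 ± 0.19 for Fcgrt. edgeR called 0 of 5 members and 0.0185% of all genes, 0 members were under an unadjusted p of 0.05, and DESeq2 called 0. Both IRF7-deficient libraries lay below both WT libraries for Fcgr3 and Fcgrt, and how many of all genes separated likewise was not counted. Differences of the size of these standard errors were not detectable with 2 libraries a group.

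In IRF7-deficient osteoclasts the 3 activating receptors had the lowest estimates of the members. The differences from WT were -0.62 ± 0.30 for Fcgr1, -0.72 ± 0.18 for Fcgr3 and -0.71 ± 0.27 for Fcgr4. Both deficient libraries of each lay below both WT libraries, a separation whose share over all genes was not computed. Fcgr2b differed by -0.28 ± 0.37 and Fcgrt by 0.12 ± 0.19, with overlap. edgeR called 0 of 5 members (0.0185% of all genes), 2 were under an unadjusted p of 0.05, and the smallest adjusted p was 0.808, for Fcgr3. DESeq2 called 0, and edgeR without the filter on low counts called 1, Fcgr3 (adjusted p = 0.0137). The macrophage markers had a median of -0.32 in this comparison and the osteoclast markers one of 0.21, with 0 called in either list, and their part was not tested. In the interaction of IRF7 genotype with RANKL, edgeR called 0 members and 0% of all genes, 0 members were under an unadjusted p of 0.05, and DESeq2 called 0. The ratios of Fcgr1, Fcgr3 and Fcgr4 to Fcgr2b were lower in deficient cells by 0.23 to 0.31 in SREBP2 deficiency and by 0.22 to 0.35 in IRF7 deficiency on the log2 scale. With 36 arrangements the exact permutation test cannot go below p = 0.0556, and the 6 p-values were 0.167 to 0.556 (0.375 to 0.556 after adjustment over the 9 tests).

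**Figure D4:**
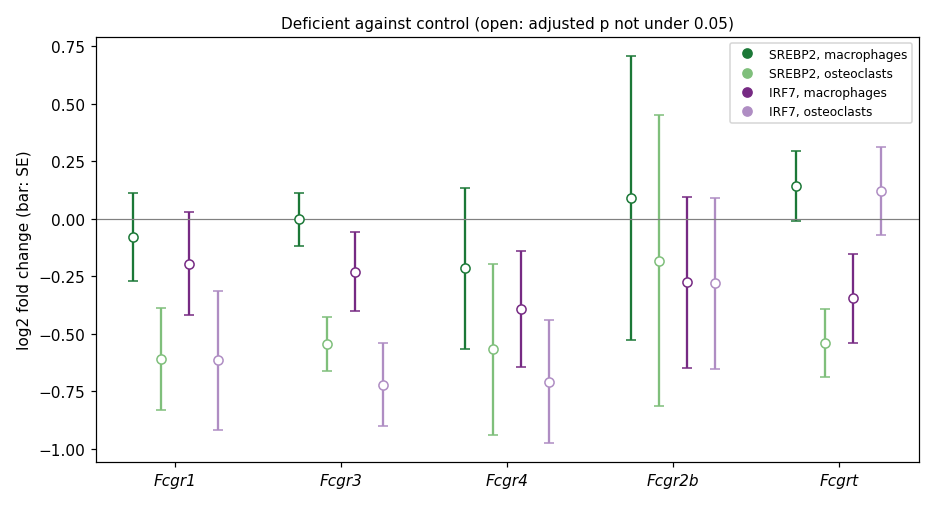
log2 fold change of deficient against control cells for each receptor, in macrophages and osteoclasts of both experiments, with bars for 1 SE. All points are open because none had an edgeR adjusted p under 0.05. In osteoclasts the activating receptors lie between -0.54 and -0.72.

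The partners of the activating receptors moved in both directions with RANKL. Fcer1g, the FcRγ chain, had 559.8 and 595.1 CPM in LysM-Cre control macrophages and 375.3 and 387.0 CPM after RANKL, and 528.0 and 697.6 against 268.1 and 269.1 CPM in WT cells. It fell in all 4 genotypes, by 0.60 and 0.76 (log2) in the SREBP2 experiment and by 1.19 and 1.36 in the IRF7 experiment (edgeR adjusted p = 3.0e-04 to 0.0022). Fcer1g thus fell less than Fcgr1 in each genotype. The kinase Src, known for its need in osteoclast ruffled borders, rose by 7.95 to 8.91, and Fgr rose by 1.09 to 2.23 (log2). Syk, the kinase that binds the ITAM, rose by 1.06 to 1.32, while Lyn, the kinase that phosphorylates both ITAM and ITIM, changed by -0.80 to -0.96.

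Of the 14 genes of activating signalling, 5 rose and 6 fell in LysM-Cre control cells, 6 and 6 in SREBP2-deficient cells, and 4 and 6 in both WT and IRF7-deficient cells, with medians of -0.15, -0.19, -0.19 and -0.01. Of the 10 genes of inhibitory signalling, 4 rose and 3 fell in LysM-Cre control cells, 4 and 4 in SREBP2-deficient cells, and 4 and 5 in both genotypes of the IRF7 experiment, with medians of -0.07, -0.09, -0.29 and -0.26. These shares stand beside the 47.4% to 57.7% of all genes called. In the inhibitory list, SHIP-1 (Inpp5d) changed by -0.75 to -0.90 and the adaptor Dok2 by -1.96 to -2.86, and both fell in each genotype. The adaptors Dok1 and Dok3 rose in each genotype, by 0.76 to 1.05 and by 1.04 to 1.36. In the 4 genotype comparisons and both interactions, 0 genes of either list were called by edgeR, with at most 1 per list and comparison under an unadjusted p of 0.05.

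**Figure D5:**
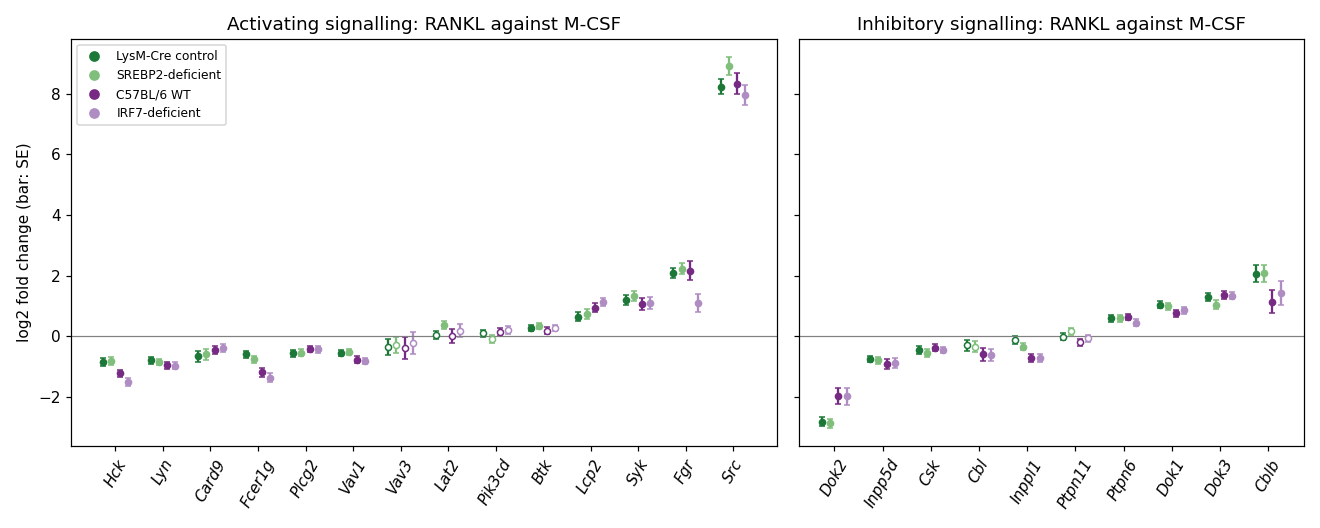
log2 fold change of RANKL against M-CSF for the genes of activating (left) and inhibitory (right) signalling in the 4 genotypes, with bars for 1 SE and filled points where the edgeR adjusted p was under 0.05. Both lists hold genes that rose and genes that fell, and Src, at 7.95 to 8.91, is far above the rest.

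FcRn needs B2m, and B2m did not rise in all genotypes in which Fcgrt was called higher with RANKL. B2m rose in LysM-Cre control cells, from 1081 and 849 CPM to 1735 and 1580 CPM (0.78 ± 0.19, edgeR adjusted p = 0.0072), and in SREBP2-deficient cells (0.68 ± 0.19, edgeR adjusted p = 0.0144). It fell in IRF7-deficient cells, from 1093 and 1273 CPM to 904.5 and 607.8 CPM (-0.65 ± 0.20, edgeR adjusted p = 0.0275). There the Fcgrt call was lost without some of the libraries, as given above. In WT cells B2m did not pass (-0.40 ± 0.20, edgeR adjusted p = 0.137), and neither did Fcgrt. B2m was not run under the alternatives. Of the 5 listed genes of the FcRn partner and recycling group, 4 were tested. Rab11a, a GTPase of recycling endosomes, fell by 0.86 to 1.18 (log2) in all 4 genotypes, Rab5a of early endosomes rose in SREBP2-deficient cells (0.43, edgeR adjusted p = 0.0156) and did not pass in the other 3 genotypes, and Rab4a passed in none. No gene of this group was called in a genotype comparison or an interaction by edgeR, with at most 1 under an unadjusted p of 0.05.

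Few other genes listed as immunoglobulin receptors or their relatives passed the authors' filter. Of 12 listed, 3 were tested in the SREBP2 table and 4 in the IRF7 table. Fcrls, a receptor of the Fc receptor-like family, had 3500 and 2319 counts in LysM-Cre control macrophages and 255 and 131 with RANKL, and 2105 and 2586 against 26 and 31 counts in WT cells. It fell in all 4 genotypes, with log2 changes of -3.55 and -3.82 in the SREBP2 experiment and -6.09 and -6.25 in the IRF7 experiment (edgeR adjusted p = 4.2e-06 to 0.0021). Fcrl1 rose in all 4, by 0.84 to 1.57. Trim21, the cytosolic receptor for antibody-bound virus, fell in 3 of 4 (-0.60 to -0.97) and did not pass in LysM-Cre control cells (-0.39 ± 0.17, edgeR adjusted p = 0.0735). Fcmr, the IgM receptor, was called lower with RANKL in the IRF7 table, with 16 to 55 counts in the 4 macrophage libraries and 0 in the 4 RANKL libraries.

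Fcgr1 and other family members are known to respond to interferon, and the fixed list of 10 interferon-inducible genes is given for that reason. With RANKL, 2 rose in LysM-Cre control cells (Gbp2 at 1.41 and Irf1 at 0.67) and 2 in WT cells (Cxcl10 at 2.74 and Gbp2 at 1.32). None was called in SREBP2-deficient cells, where 0 were under an unadjusted p of 0.05, and 4 fell in IRF7-deficient cells (among them Rsad2 at -1.98, Ifit3 at -1.96 and Ciita at -1.35). Between genotypes the list had a median of -0.72 in SREBP2-deficient osteoclasts, with 10 of 10 below 0, 2 under an unadjusted p of 0.05 and 0 called by edgeR. In IRF7-deficient osteoclasts the median was -1.49, with 10 of 10 below 0, 8 under an unadjusted p of 0.05 and 1 called, Irf7 itself. In macrophages the list had a median of -0.12 in SREBP2 deficiency, with 9 of 10 below 0 and 0 called. In IRF7 deficiency the median was -0.22, with 7 of 10 below 0 and 1 called, Irf7 itself. Irf7 is the deleted gene there, so in macrophages and osteoclasts of that experiment its place in these counts was set by the genotype. The activating receptors had estimates below 0 in all 4 genotype comparisons, but that of Fcgr3 in SREBP2-deficient macrophages was -0.00 ± 0.12. Estimates below 0 were not limited to them. In SREBP2 deficiency 3 of 5 members were below 0 in macrophages and 5 in osteoclasts, and in IRF7 deficiency 5 and 4. The part of interferon-inducible genes in these estimates was not tested.

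Genes whose pattern was most like that of each member were found among 10598 genes tested in both tables, by the mean of the Pearson r of log2 CPM over the 8 libraries of each table. For Fcgr1 and Fcgr3, which fell with RANKL in all 4 genotypes, r mostly restates the RANKL contrast that the 8 libraries share. Fcgr2b passed in no RANKL comparison, and Fcgr4 only in IRF7-deficient cells. Replicate 1 over replicate 2 was 2.02 to 2.20 for Fcgr2b and 1.30 to 1.82 for Fcgr4 in the SREBP2 experiment. In the IRF7 experiment it was 0.981 to 2.29 and 1.10 to 1.56. Such replicate differences also enter r, and their part was not tested. The genes most like Fcgr1 were B4galt6 (mean r 0.998), the complement gene C1qc (0.997) and Slc15a3 (0.996), and for Fcgr3 Cnp (0.994), Lmo2 (0.994) and Maf (0.993). For Fcgr4 they were Slfn4 (0.934), Bank1 (0.925) and Bach2os (0.916). For Fcgr2b they were Ankrd16 (0.928), Dleu2 (0.837) and Zc3h7a (0.822), and for Fcgrt Kifc3 (0.912) and Atp13a2 (0.910). Among the members themselves, Fcgr1 and Fcgr3 had r of 0.965 and 0.995 in the SREBP2 and IRF7 tables. Fcgr1 and Fcgr2b had 0.640 and -0.183, and Fcgr4 and Fcgr2b had 0.903 and 0.244.

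Of the neighbours outside the family, few were tested. Next to the cluster on chromosome 1, beyond Fcgr3, Sdhc of mitochondrial complex II rose by 1.23 to 1.65 (log2) with RANKL in all 4 genotypes. Beside Fcgrt, Nosip (-0.24 to 0.01) passed in no genotype. All 4 neighbours of Fcgr1 were below the authors' filter.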

How the data were processed

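RNA-seq of 16 BMM libraries was used. The counts, as deposited by the authors, are whole reads per gene and were not normalized. The submitters' processing notes name STAR 2.7.3a, fastp, bcl2fastq 1.8.4 and the mm10 genome. Which program counted the reads, with which strand setting and annotation, is not given in the sources used here. Further log2 values deposited by the authors were not used.

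The 2 tables were fitted separately with TMM factors (edgeR 4.0.16, R 4.3.3), 1 coefficient per group, robust quasi-likelihood tests and 4 residual degrees of freedom, over the genes the authors kept. A gene was called when its adjusted p (Benjamini-Hochberg, every tested gene included) was under 0.05. SE is the log2 fold change over the square root of F. Ratios of counts were tested by exact permutation within genotypes or treatments (Python 3.11.15, scipy 1.17.1). Exon lengths and transcripts came from GENCODE M21, whose coordinates of the members equal those deposited, and promoters from RefSeq. Alternatives were DESeq2 1.42.0 (size factors and Wald test), no filter, the replicate number as a block, 0.5 counts added to ratios, and leaving out each library. Scripts were tested on simulated data.

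Members, lists and tests were chosen with earlier results of these data known. Named genes are all members, Srebf2 and Irf7, up to 4 genes per list by smallest p in LysM-Cre control cells with RANKL plus Fcer1g and B2m, the 3 genes most like each member, and 2 neighbours on each side. Genes named beside small counts (Ctsk, Acp5, Fcmr, Cxcl10, Rsad2, Ifit3, Ciita) were chosen after their values were seen or serve as examples. Some genes that the rule names are not reported here.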

Additional observations from a re-analysis of the deposited data

How the results depend on the processing

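Of 600 values of single members under alternatives, 547 kept their direction and side of the threshold, 17 gained a call, 7 lost one and 29 changed sign, none of them a called value. The RANKL falls of Fcgr1 and Fcgr3 kept their call in all. The number of genes called between genotypes depended on the tool: DESeq2's Wald test called 20 and 28 genes in SREBP2-deficient macrophages and osteoclasts and 4 and 22 in IRF7-deficient ones, and edgeR without the filter on low counts called 67, 132 and 2 (SREBP2 macrophages, osteoclasts, interaction) and 58, 95 and 11 (IRF7). Without the filter, 5 members were called with RANKL in SREBP2-deficient cells and 1 (Fcgr3) in the osteoclasts of each deficiency, and DESeq2 called 1 (Fcgr3) in SREBP2-deficient osteoclasts. The cause was not tested. With the replicate number as a block, 5 members were called with RANKL in LysM-Cre control and 5 in SREBP2-deficient cells, where Fcgr2b changed by -0.63 and -0.91 (edgeR adjusted p = 0.0011 and 1.7e-04) and Fcgr4 by -0.44 and -0.80 (adjusted p = 0.0476 and 0.0047). The block also called Fcgr4 in WT cells (-0.62, adjusted p = 0.0109) and gave the ratio of Fcgr3 to Fcgr2b an adjusted p of 0.0352 at the same mean of -1.98, and it called 0 members between genotypes. The labels do not say that a number pairs samples, and same-numbered deviations correlated at 0.107 to 0.680 in the SREBP2 table and 0.0574 to 0.721 in the IRF7 table. Adding 0.5 counts to the ratios changed no call.

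With each library left out in turn, genes called ran from 2 to 13 and 3 to 9 in SREBP2-deficient macrophages and osteoclasts and from 0 to 3 and 0 to 11 in IRF7-deficient ones, and members called with RANKL in IRF7-deficient cells from 2 to 4. A lone remaining library is assumed to vary like the other groups. With RANKL, LysM-Cre control cells gave -0.93 to 0.015 for Fcgr4 and -1.25 to 0.031 for Fcgr2b, WT cells -0.32 to 0.87 for Fcgr2b and -0.20 to 0.44 for Fcgrt, and IRF7-deficient cells -0.038 to 0.31 for Fcgr2b (log2). SREBP2-deficient macrophages gave -0.20 to 0.052 for Fcgr1, -0.097 to 0.086 for Fcgr3, -0.56 to 0.23 for Fcgr4 and -0.56 to 0.77 for Fcgr2b, and osteoclasts -0.77 to 0.40 for Fcgr2b. The SREBP2 interaction gave -0.80 to 0.13 for Fcgr4 and -0.95 to 0.38 for Fcgr2b. IRF7-deficient macrophages gave -0.42 to 0.0029 for Fcgr1 and -0.75 to 0.44 for Fcgr2b, and osteoclasts -0.57 to 0.045 for Fcgr2b and -0.17 to 0.47 for Fcgrt. The IRF7 interaction gave -0.72 to 0.47 for Fcgr2b, with 0.0037 under DESeq2 size factors and 0.034 without the filter. Ratio changes ran from -2.13 to -1.84 (Fcgr3, RANKL), -0.63 to 0.0033 (Fcgr1, SREBP2), -0.53 to 0.063 (Fcgr3, SREBP2) and -0.55 to 0.013 (Fcgr3, IRF7). The lowest member count behind these values was that of Fcgr1 in IRF7-deficient osteoclasts, where counting error is largest.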
